A study of Drosophila melanogaster with 9 samples.

Results

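The genes described here encode the eukaryotic translation initiation factors (eIFs), taken as every row of the deposited tables whose symbol begins with eIF. There were 34 such genes among 6440. They comprised 2 eIF1 genes, the 3 subunits of eIF2, the 5 subunits of eIF2B, eIF2D, 13 eIF3 subunits, 7 eIF4 genes, eIF5, eIF5B and eIF6. The rule used the symbol alone and no measured value, but it was set with earlier results of these data known. All 34 genes had a value above 0 in each library.

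The libraries came from wild-type embryos of Drosophila melanogaster, lysed at 0 to 3 h after egg laying. ORB2, a CPEB-family RNA-binding protein, was captured with the synthetic antibody fragment (Fab) anti-ORB2 E8, and RNA eluted with it was sequenced (ORB2 IP, n = 3). In the control IP (n = 3) the Fab was C1, directed against EGFR. The input (n = 3) was the extract itself. Setting ORB2 IP against control IP asked which mRNAs ORB2 brought down beyond an unrelated Fab, and each IP against input asked how its make-up differed from that of the extract. Whole embryos were lysed, so a value is a mean over all their cells, and fewer cells of a type and less RNA per cell cannot be told apart.

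Initiation begins when eIF4E binds the cap of an mRNA and, through the scaffold eIF4G, brings the RNA helicase eIF4A with its helpers eIF4B and eIF4H. The small ribosomal subunit arrives with eIF1, eIF1A, eIF3, eIF5 and the complex of eIF2, GTP and initiator tRNA. It scans to the start codon, where eIF5 promotes GTP hydrolysis on eIF2, eIF5B joins the large subunit and eIF2B reloads eIF2 with GTP. In the early fly embryo, where stored maternal mRNAs direct development, many repressors act at the cap-binding step. The values below describe the mRNAs that encode these proteins, and say nothing of the proteins themselves.

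Normalized-count totals over the listed genes ran from 2625388 to 5368634 a library. In 5 IP libraries the lowest values were mostly spaced by a fixed amount, taken to be the worth of 1 read: 6.54 normalized counts in ORB2 IP replicate 2 and 0.87 to 1.78 in the other 4. The lowest IP value of any eIF gene, 51.2 for eIF2Balpha in ORB2 IP replicate 2, thus stood for about 7.8 reads. ORB2 IP replicate 3 gave no firm step and the inputs none, so their depth in reads is unknown. A pair of libraries stood apart. ORB2 IP replicate 3 resembled the control IPs (Spearman's rho across genes 0.929 to 0.953) more than replicates 1 and 2 did (0.828 to 0.875). Input replicate 1 correlated with the other inputs at 0.893 and 0.911, against 0.968 between those, and with the IPs at 0.811 to 0.856, against 0.557 to 0.671 for inputs 2 and 3. Of the marker lists, all 8 maternal mRNAs and 9 of 10 early zygotic mRNAs were listed. Their transcripts-per-million (TPM) sums were 2395 to 3211 and 288 to 388 in input. ORB2 IP had 1291 to 1976 and 277 to 431, and control IP 967 to 1157 and 479 to 794. Of 6 late differentiation genes 1 was listed, how, at 1.74 to 6.14 TPM in input, and none of 6 follicle-cell genes was. The part of these lists and of the libraries that stood apart in the results was not tested, beyond the fits without a library given below.

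**Figure D1:**
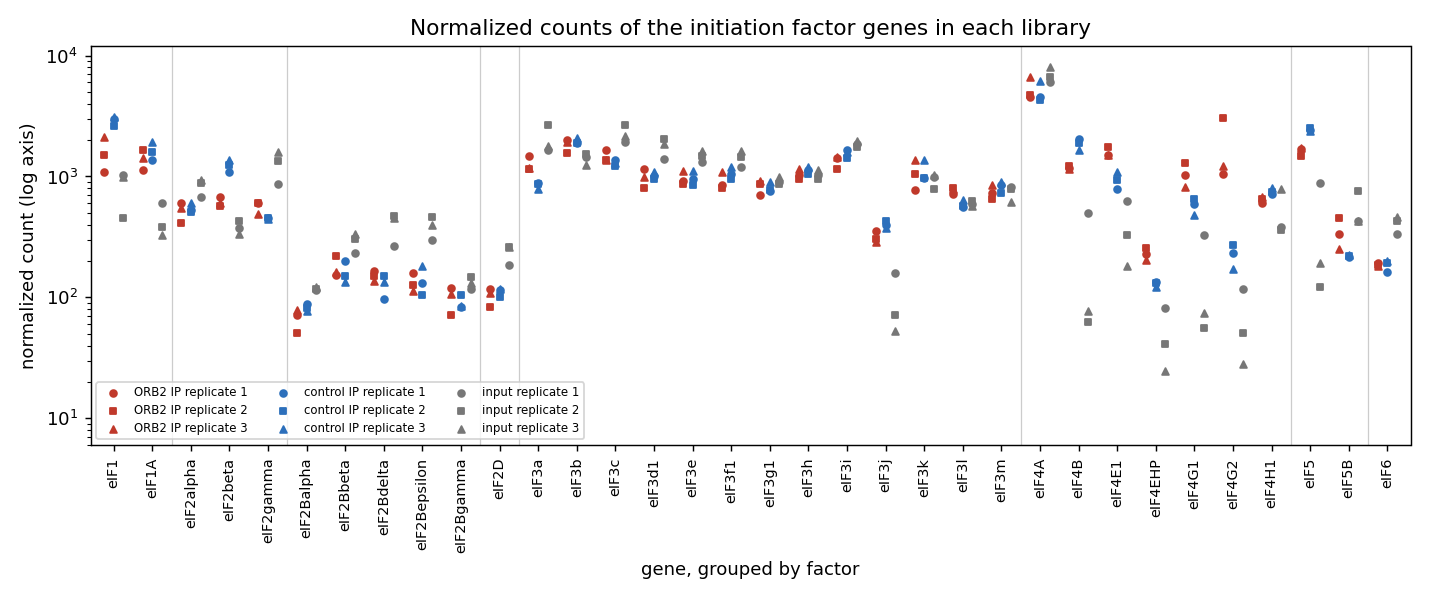
Normalized count (log axis) of each of the 34 initiation factor genes in the 9 libraries, grouped by factor; each point is 1 library. Points of eIF4G2, eIF4G1, eIF4B, eIF5 and eIF3j spread widely between libraries, with inputs 2 and 3 lowest.

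Against control IP, ORB2 IP held more mRNA of the cap-binding and scaffold genes and less of eIF2beta, eIF1, eIF4B and eIF5. Of the 34 genes, 6 were higher (eIF4G2, eIF4G1, eIF4EHP, eIF4E1, eIF5B and eIF3a), 4 were lower and 24 did not pass the test. The test was limma's moderated test on log2(normalized count + 1), two-sided, with Benjamini-Hochberg adjustment over 6318 genes, and a gene was called at an adjusted p below 0.05. The 10 calls were 29.4% of the eIF genes, where 42.5% of all genes tested were called. Higher calls were 17.6% of the eIF genes against 20.8% of all genes, and lower calls 11.8% against 21.6%. The median log2 fold change was -0.06 over the eIF genes and 0.00 over all genes. Each share lay below that of all genes, a description without a test. Of the 10 calls, 5 fell on the 7 eIF4 genes, whose median was 0.76. By comparison 1 of 13 eIF3 genes (median -0.07), none of 5 eIF2B genes (none at an unadjusted p below 0.05 either), 1 of 3 eIF2 genes (median -0.08), 1 of 2 eIF1 genes and both eIF5 genes were called. Differences between complexes were not tested. At least 2-fold and called were 1 gene higher (7.93% of all genes) and none lower (6.84%). At an unadjusted p below 0.05 there were 11 eIF genes, where 51.6% of all genes passed. The 3 libraries of ORB2 IP lay above all of control IP for 8 eIF genes and below for 6, against 27.6% and 28.3% of all genes. Without ORB2 IP replicate 3, the library closest to the control IPs, 7 eIF genes were higher and 4 lower.

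**Figure D2:**
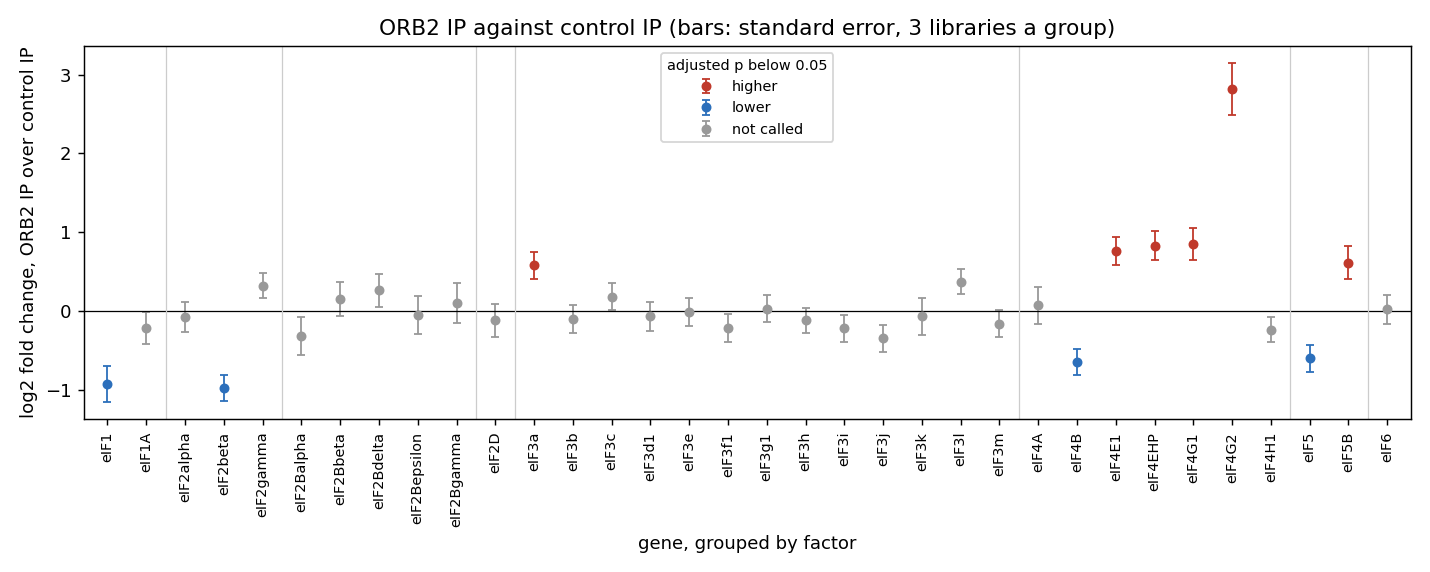
Log2 fold change of ORB2 IP over control IP for the 34 genes, with its standard error (3 libraries a group) and coloured by call at an adjusted p below 0.05. eIF4G2 stands at 2.82, and the called genes otherwise lie between -0.98 and 0.85.

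The largest difference was that of eIF4G2 (FBgn0260634; chromosome 3R, 23808285 to 23819237, minus strand; coordinates are those of BDGP6.54 throughout), a paralog of the eIF4G scaffold best known in flies for its part in spermatogenesis. Its normalized counts were 1048, 3022 and 1217 in ORB2 IP replicates 1 to 3. In control IP they were 232, 271 and 170, and in input 118, 51.2 and 28.3. ORB2 IP was above control IP in all libraries, the highest being replicate 2, the library in which a read carried most weight. The log2 fold change was 2.82 (SE 0.33, limma adjusted p = 0.000391), a 7.09-fold difference, which placed the gene at the 99.6th percentile of all genes tested. Without ORB2 IP replicate 2 the log2 fold change was 2.35. In TPM the gene had the lowest mean input level of the 34, 2.94, and its lowest value, 1.14 in input replicate 3, lay just over the level of 1 that every gene in the tables exceeded in every input. Its exons share 779 bases with CG33111 on the same strand, whose log2 fold change was 0.33 (limma adjusted p = 0.392).

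The canonical scaffold gene eIF4G1 (FBgn0023213; chromosome 4, 915297 to 930715, minus strand) had 1036, 1298 and 814 normalized counts in ORB2 IP. Its control IP values were 598, 655 and 480, and its input values 329, 55.6 and 73.7. The IP groups did not overlap, and the log2 fold change was 0.85 (SE 0.20, limma adjusted p = 0.00776). The paralogs therefore differed in their proportions between the precipitates. Per transcript length, the TPM of eIF4G2 was 0.675, 1.55 and 0.998 times that of eIF4G1 in ORB2 IP, but 0.259, 0.276 and 0.237 times in control IP. The input ratios were 0.240, 0.614 and 0.256, so that the ORB2 IP ratios lay above all those of the other groups.

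Both cap-binding genes rose by a similar amount. eIF4E1 (FBgn0015218; chromosome 3L, 9399618 to 9402460, minus strand), the main cap-binding protein, had 1496, 1741 and 1494 normalized counts in ORB2 IP, against 791, 943 and 1084 in control IP. Its input values were 624, 325 and 180. The log2 fold change over control IP was 0.76 (SE 0.18, limma adjusted p = 0.00708). eIF4EHP (FBgn0053100; chromosome 3R, 24063077 to 24108960, minus strand) encodes a cap-binding protein that does not recruit eIF4G and represses translation of embryonic patterning mRNAs such as caudal. Its counts were 230, 258 and 206 in ORB2 IP, 133, 131 and 122 in control IP, with 82.0, 41.4 and 24.6 in input. The IP groups did not overlap for either gene, and for eIF4EHP the log2 fold change was 0.83 (SE 0.18, limma adjusted p = 0.00529). The TPM of eIF4E1 stood at 8.41 to 9.37 times that of eIF4EHP in ORB2 IP, 7.66 to 11.4 times in control IP and 9.53 to 10.1 times in input, ranges that overlap. Exons of eIF4EHP share 447 bases with Syx1A on the same strand, which was not analysed here. With libraries scaled to equal totals, or all 9 libraries in a shared fit, eIF4G1, eIF4EHP and eIF4E1 were no longer called.

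The helicase and its helpers did not follow the cap-binding genes. eIF4A, the helicase, was the most abundant eIF mRNA by TPM in input (mean 1604) and had 4554, 4689 and 6582 normalized counts in ORB2 IP. Control IP held 4574, 4271 and 6205 and input 6012, 6625 and 8094. The IPs overlapped, and the log2 fold change was 0.07 (SE 0.24, limma adjusted p = 0.829). eIF4B (FBgn0020660; chromosome 3L, 27842669 to 27858271, minus strand), which stimulates eIF4A, was lower in ORB2 IP. Its counts were 1185, 1224 and 1147 there, 2048, 1890 and 1652 in control IP, with 495, 62.2 and 77.7 in input. The groups did not overlap (log2 fold change -0.65, SE 0.17, limma adjusted p = 0.0103), but the call was lost in the TPM table, with quantile normalization and with all 9 libraries in a shared fit. For eIF4H1, the other helper, the counts were 599, 646 and 675 in ORB2 IP, 719, 749 and 798 in control IP, with 380, 362 and 795 in input. The IP groups did not overlap here either, though input overlapped both, at a log2 fold change between the IPs of -0.24 (SE 0.16). This missed the threshold (limma adjusted p = 0.229).

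Among the carriers of initiator tRNA, eIF2beta (FBgn0004926; chromosome 3L, 12525093 to 12526731, minus strand) had the largest decrease of the 34 genes. Its normalized counts were 674, 575 and 609 in ORB2 IP, 1084, 1233 and 1365 in control IP, with 374, 428 and 337 in input. The log2 fold change over control IP was -0.98 (SE 0.17, limma adjusted p = 0.00193), a 1.98-fold lower level, with no overlap. eIF2gamma, the GTP-binding subunit, had 603, 601 and 491 against 452, 454 and 441 in control IP, with 872, 1338 and 1579 in input. The IP groups did not overlap, at a log2 fold change of 0.32 (SE 0.16) that missed the threshold (limma adjusted p = 0.122). eIF2alpha, the subunit that stress kinases phosphorylate, had 607, 409 and 546 in ORB2 IP, against 524, 505 and 605 in control IP. These overlapped (log2 fold change -0.08, SE 0.19, limma adjusted p = 0.749). The subunits of 1 complex thus stood in unlike proportions. The TPM of eIF2beta was 0.380 to 0.761 times that of eIF2gamma in input, 1.70 to 2.21 times in ORB2 IP and 4.26 to 5.51 times in control IP, with no overlap between the groups. The ratio of eIF2alpha to eIF2gamma was 0.907 to 1.20 in input, 1.05 to 1.71 in ORB2 IP and 1.71 to 2.11 in control IP.

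All 5 genes of eIF2B, the nucleotide exchange factor of eIF2, were uncalled between the IPs, with log2 fold changes from -0.32 (eIF2Balpha) to 0.26 (eIF2Bdelta). These were low genes in the IPs, at 51.2 to 220.2 normalized counts. Their standard errors of 0.21 to 0.25 leave small differences undetectable, but the abundant eIF4A had an SE of 0.24. The part of their low level in this was not tested.

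The eIF3 genes, which encode the largest initiation factor and the docking platform of the small subunit, mostly did not pass the test between the IPs. These were 12 of 13, with log2 fold changes from -0.35 (eIF3j) to 0.37 (eIF3l). The called gene was eIF3a (FBgn0037249; chromosome 3R, 4429798 to 4433895, minus strand), which encodes the scaffold subunit, at 1478, 1149 and 1185 normalized counts in ORB2 IP. It had 886, 869 and 788 in control IP, with 1667, 2684 and 1779 in input. The log2 fold change over control IP was 0.58 (SE 0.17, limma adjusted p = 0.018) without overlap. Leaving out control IP replicate 2 or 3 ended the call (limma adjusted p = 0.0596 and 0.0704). eIF3l had 710, 798 and 780 in ORB2 IP against 564, 565 and 641 in control IP, without overlap. Its limma adjusted p of 0.0753 fell to 0.049 with the replicate number as a block. The loosely bound subunit gene eIF3j had 355, 306 and 285 in ORB2 IP, against 400, 426 and 378 in control IP, also without overlap, at a limma adjusted p of 0.106. Members of this complex with named paralogs in flies, eIF3d1, eIF3f1 and eIF3g1, overlapped between the IPs. They had 801 to 1152, 796 to 1093 and 705 to 921 normalized counts in ORB2 IP. The control IP ranges were 952 to 1096, 946 to 1189 and 755 to 907.

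The genes of start-codon recognition and subunit joining went both ways. eIF1 (FBgn0035423; chromosome 3L, 3223341 to 3224650, plus strand), whose protein guards start-codon choice, had 1098, 1508 and 2123 normalized counts in ORB2 IP. It had 3013, 2604 and 3106 in control IP, with 1025, 455 and 998 in input. The IP groups did not overlap, with ORB2 IP replicate 3 nearest to control IP (log2 fold change -0.93, SE 0.23, limma adjusted p = 0.00932). Its partner eIF1A overlapped, with 1133, 1640 and 1411 against 1357, 1583 and 1914 (log2 fold change -0.22, SE 0.20, limma adjusted p = 0.399), and it had 598, 385 and 326 in input.

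eIF5 (FBgn0030719; chromosome X, 15987008 to 15991974, minus strand), the GTPase activator of eIF2, had 1677, 1463 and 1704 normalized counts in ORB2 IP, against 2402, 2530 and 2383 in control IP. The log2 fold change was -0.60 (SE 0.17, limma adjusted p = 0.0155) without overlap. Leaving out ORB2 IP replicate 2 or control IP replicate 2 ended the call (limma adjusted p = 0.0528 and 0.0755). It was also lost in the TPM table, with equal upper quartiles, with quantile normalization and with all 9 libraries in a shared fit. That made 7 of the 19 alternatives (highest limma adjusted p 0.405). Of its 3203 exon bases, 2588 are shared on the same strand with CG46312, which was not analysed here, so the reads of that pair may have been split by the authors' counting and the value is uncertain. eIF5B (FBgn0026259; chromosome 3L, 3428658 to 3460977), the GTPase that joins the subunits, had 336, 458 and 250 in ORB2 IP, against 217, 221 and 225 in control IP. The groups did not overlap, but the log2 fold change of 0.61 (SE 0.21, limma adjusted p = 0.0389) was the least stable call. Leaving out ORB2 IP replicate 1 or 2, or any control IP replicate, ended it (limma adjusted p = 0.0686, 0.144, 0.0966, 0.0905 and 0.0828 in that order). eIF6, which keeps the subunits apart, and eIF2D, a factor related to DENR and MCTS1, were uncalled at log2 fold changes of 0.02 and -0.12.

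Only eIF2beta and eIF4G2 were called between the IPs under all 19 alternatives tried. Where libraries were scaled to equal totals, the median of all genes moved to -0.35, and 1 eIF gene was higher and 8 were lower. There 14.9% of all calls were higher, against 49.1% before. In the TPM table the median of all genes was 0.24, 65.6% of calls were higher, and 7 eIF genes were higher and 2 lower. The median of the eIF4 genes stayed above that of all genes under these scalings (0.40 and 1.01), and that of the eIF3 genes took the sign of the scaling (-0.43 and 0.18).

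Transcript length moved with these differences. The longest eIF transcripts, by the annotated transcript with the longest 3′ untranslated region, were those of eIF4G2 (8889 nt), eIF4G1 (6335 nt), eIF4EHP (4539 nt), eIF5B (4006 nt), eIF4H1 (3898 nt) and eIF3a (3892 nt). Of these 6, 5 were called higher in ORB2 IP, and 1 of the other 28, eIF4E1 (1793 nt). The next longest, eIF3c (3275 nt), was uncalled at a log2 fold change of 0.18, and so was the short eIF3k (853 nt) at -0.07. The lower genes were eIF1 (681 nt), eIF2beta (1128 nt), eIF4B (1651 nt) and eIF5 (2587 nt). The deposited values imply shorter lengths for eIF4EHP and eIF4H1, since TPM scales a count by length. In input replicate 1 eIF3a had 1667 normalized counts at 152.8 TPM. There eIF4EHP had 82.02 at 15.64 and eIF4H1 380.4 at 56.04, fewer counts per TPM. The place of these genes among the longest thus rests on the annotation. Across the 34 genes the log2 fold change and log2 length had Pearson's r = 0.72 and Spearman's rho = 0.54, and across 6272 genes 0.50 and 0.53. Genes are not independent replicates and share their libraries, so these describe the tables. Of all genes with transcripts under 1000 nt, 1.19% were higher and 49.6% lower, and of those of at least 6000 nt, 56.5% were higher and 2.03% lower. Between these, 34.2% were higher and 7.11% lower at 3000 to under 4000 nt. At 4000 to under 6000 nt, 42.8% were higher and 3.16% lower.

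The length trend of the log2 fold change over all genes was then subtracted from the ORB2 IP libraries. With it removed, eIF4G2 (log2 fold change 2.19) and eIF4E1 (0.82) were still higher. eIF2beta (-0.59), eIF4B (-0.50) and eIF5 (-0.79) were still lower. eIF4H1, long by its annotation and uncalled before, was now called lower (-0.61, limma adjusted p = 0.0166). The other 5 calls fell below the threshold, at 0.30 for eIF4G1, 0.41 for eIF4EHP, 0.23 for eIF5B, 0.21 for eIF3a and -0.31 for eIF1. For eIF4H1 and eIF4EHP the trend was subtracted at annotated lengths longer than those the deposited values imply. Their changes here, with the new call of eIF4H1, are therefore uncertain. What length stands for in these libraries was not tested.

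**Figure D3:**
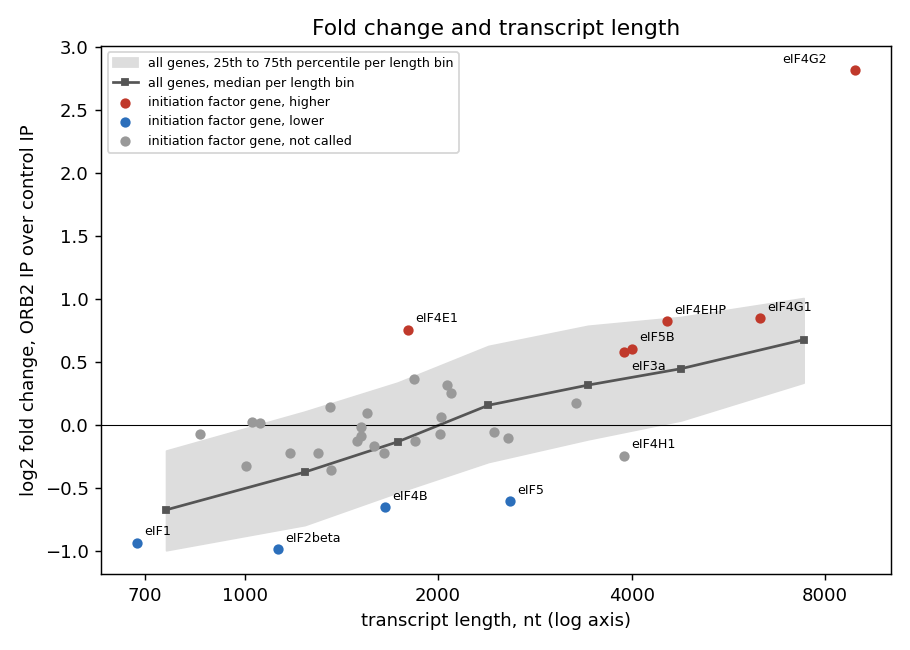
Log2 fold change of ORB2 IP over control IP against transcript length (log axis): points are the 34 initiation factor genes, coloured by call, and the line and band give the median and the 25th to 75th percentiles of all genes in length bins. Of the 6 longest eIF genes by annotation all but eIF4H1 lie above 0, as does the median of all long genes. eIF4G2, at 2.82, lies well above the band.

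Against input, both IPs separated the eIF genes in much the same way, which is a description only, since these comparisons share the input libraries. Of the 34 genes, 10 were higher and 13 lower in ORB2 IP, where 51.1% of 6344 genes were called (26.0% higher, 25.1% lower). In control IP 11 were higher and 12 lower, where 65.7% of 6355 genes were called (33.5% higher, 32.3% lower). The called share of the eIF genes was 67.6% in each comparison, close to the background for control IP. Called changes of 2-fold or more numbered 8 up and 5 down in ORB2 IP (21.1% and 15.1% of all genes), and in control IP 10 and 7 (24.7% and 21.4%). Libraries of ORB2 IP lay above every input for 12 eIF genes and below for 14 (30.0% and 32.1% of all genes), and those of control IP for 11 and 15 (36.1% and 37.1%). The median log2 fold change was -0.28 for ORB2 IP and -0.22 for control IP, against -0.03 and 0.01 over all genes. The eIF4 genes had 5 of 7 higher and none lower in both comparisons (medians 2.37 and 1.53). The eIF2B genes had none higher and 4 of 5 lower in ORB2 IP and 3 in control IP (medians -0.84 and -0.85). Those called higher included both eIF1 genes, eIF2beta, eIF3j and eIF5.

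Among the higher genes, eIF4G2 had a log2 fold change over input of 4.79 in ORB2 IP (SE 0.51, limma adjusted p = 0.000462) and 1.96 in control IP (SE 0.45, limma adjusted p = 0.00399). eIF4G1 had 3.21 (SE 0.55) and 2.36 (SE 0.55). eIF4B had 3.13 (SE 0.62) and 3.78 (SE 0.63), the largest value of control IP, and eIF5 2.55 (SE 0.58) and 3.14 (SE 0.58). All 4 were called with either Fab under the 19 alternatives, although eIF4G2 in control IP fell to 1.01 in the TPM table with a pseudocount of 1. eIF4EHP followed at 2.37 (SE 0.40) and 1.53 (SE 0.39), eIF4E1 at 2.24 (SE 0.38) and 1.48 (SE 0.38), and eIF3j, the only eIF3 gene called higher in ORB2 IP, at 1.88 (SE 0.37) and 2.23 (SE 0.36). All these had limma adjusted p of 0.00709 or less. In control IP the calls of eIF4E1 and eIF4EHP were lost in the TPM table, where both fell as low as 0.82 (highest limma adjusted p over the alternatives 0.0736 and 0.0798). eIF1A was at 1.71 and 1.92, eIF1 at 0.97 and 1.9, and eIF2beta at 0.71 and 1.69, again called in both. In ORB2 IP the call of eIF1 ended without ORB2 IP replicate 2 or 3 or input replicate 2 or 3 (limma adjusted p = 0.0935, 0.137, 0.161 and 0.0558 in that order). That of eIF2beta ended without ORB2 IP replicate 1 or input replicate 3 (limma adjusted p = 0.0618 and 0.0823).

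The inputs disagreed on several of these genes. Input replicate 1 was at least 2 times the mean of inputs 2 and 3 for 7 eIF genes (20.6%, against 12.7% of all genes with a mean input of at least 10). They were eIF4B (7.08 times), eIF5 (5.69), eIF4G1 (5.09), eIF4G2 (2.97), eIF3j (2.58), eIF4EHP (2.49) and eIF4E1 (2.47). All 7 were called higher over input in both IPs, while eIF1, eIF1A and eIF2beta, also higher in both, had ratios of 1.41, 1.68 and 0.977. In the input itself, eIF5 had 891, 121 and 192 normalized counts and eIF3j had 160, 71.5 and 52.6. Without input replicate 1 the log2 fold changes of ORB2 IP rose to 5.33 for eIF4G2, 4.07 for eIF4B, 3.99 for eIF4G1, 3.39 for eIF5, 2.81 for eIF4EHP, 2.69 for eIF4E1 and 2.34 for eIF3j. In control IP the same 7 stood at 2.50, 4.72, 3.14, 3.99, 1.98, 1.94 and 2.69. Leaving out another input moved the values the other way or little: the eIF4 median in ORB2 IP, 2.37 with all inputs, was 2.81 without input replicate 1, 2.33 without replicate 2 and 1.96 without replicate 3. In control IP, from 1.53, it was 1.98, 1.49 and 1.13.

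Among the genes below input, eIF2Bepsilon, the catalytic eIF2B subunit, had 160, 126 and 113 normalized counts in ORB2 IP, 133, 105 and 182 in control IP, with 296, 462 and 396 in input. Its log2 fold change over input was -1.51 in ORB2 IP (SE 0.26, limma adjusted p = 0.00285) and -1.47 in control IP (SE 0.26, limma adjusted p = 0.00116). Both IPs lay below every input. eIF2Bdelta had 164, 150 and 137 in ORB2 IP, 97.0, 150 and 135 in control IP, with 264, 475 and 452 in input, at -1.35 (SE 0.27) and -1.61 (SE 0.28). eIF2D had 117, 83.5 and 110 in ORB2 IP, 114.8, 102 and 117 in control IP, with 187, 263 and 260.0 in input, at -1.18 (SE 0.26) and -1.07 (SE 0.22). eIF6 had 193, 184 and 183, then 163, 192 and 199, and 331, 429 and 459 in input, at -1.10 (SE 0.22) and -1.12 (SE 0.21). For all of these neither IP overlapped input. eIF2gamma stood at -1.12 (SE 0.26) and -1.45 (SE 0.23). These 5 genes were called under all 19 alternatives in both comparisons, whereas the lower calls of eIF2Balpha and eIF2Bbeta in ORB2 IP (-0.84 and -0.70) ended without input replicate 2 (limma adjusted p = 0.0761 and 0.111) or 3 (0.0887 and 0.147), and also without ORB2 IP replicate 1 (0.0535 and 0.122). Leaving out ORB2 IP replicate 2 ended that of eIF2Balpha (0.105), and replicate 3 that of eIF2Bbeta (0.112).

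Within eIF3, the genes were spread around input. In ORB2 IP 1 was higher and 5 were lower (eIF3a, eIF3c, eIF3d1, eIF3e and eIF3f1), and in control IP 2 were higher (eIF3j and eIF3b) and 4 lower. All 5 lower calls in ORB2 IP ended without ORB2 IP replicate 2 (limma adjusted p from 0.067 to 0.144), input replicate 2 (0.0638 to 0.205) or input replicate 3 (0.0643 to 0.156). In control IP the call of eIF3b (0.48) ended without control IP replicate 1, 2 or 3 or input replicate 3 (limma adjusted p = 0.077, 0.0908, 0.0986 and 0.0991 in that order), and in 10 of the 19 alternatives in all. That of eIF3e (-0.60) ended without control IP replicate 1 or 2 or input replicate 3 (0.0546, 0.0901 and 0.0568). eIF2alpha, called lower at -0.61 in control IP, lost its call without control IP replicate 1 or 2 or input replicate 2 or 3 (0.0672, 0.0853, 0.054 and 0.0704). eIF3a was at -0.66 in ORB2 IP (limma adjusted p = 0.0492) and -1.24 in control IP (limma adjusted p = 0.001). eIF5B had 428, 764 and 429 normalized counts in input and was below it in control IP (-1.23, limma adjusted p = 0.00211), and uncalled in ORB2 IP (-0.62, limma adjusted p = 0.113). The difference of these effects is the comparison between the IPs given above. Lower calls in ORB2 IP fell with fewer libraries: 13 became 6 without ORB2 IP replicate 2, 5 without input replicate 2 and 5 without input replicate 3. Over all genes, 1593 lower calls became 1165, 1035 and 891 in the same fits. Lower calls thus fell over all genes too, but the eIF genes lost a larger share of theirs. With libraries scaled to equal totals, eIF2beta in ORB2 IP lay at -0.07 against input, where the median of all genes lay at -0.81.

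**Figure D4:**
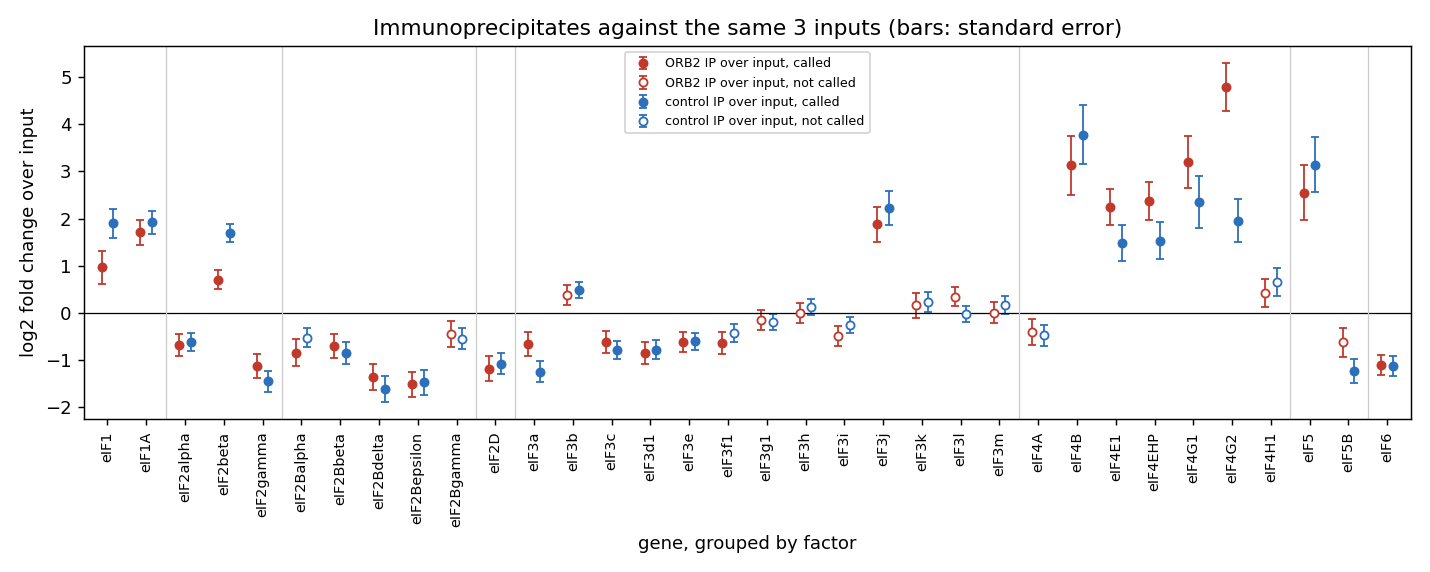
Log2 fold change over input of ORB2 IP and of control IP for the 34 genes, with standard errors (3 libraries a group). Both eIF1 genes, eIF2beta, eIF3j, eIF5 and the eIF4 genes except eIF4A and eIF4H1 were called above 0 with either Fab. The eIF2B genes, eIF2D, eIF2gamma and eIF6 stand below 0, though not every eIF2B gene was called.

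Compared per transcript length, the make-up of the initiation machinery's mRNAs differed between extract and precipitates. Input was led by eIF4A (mean 1604 TPM), eIF3i (621), eIF1 (556) and eIF3k (456), and ended with eIF4G1 (9.96), eIF4EHP (9.79) and eIF4G2 (2.94). In ORB2 IP eIF4A (921) and eIF1 (802) led, and in control IP eIF1 (1277) stood above eIF4A (742). The TPM of eIF4A was 63.7, 416 and 383 times that of eIF4G1 in the inputs, where input replicate 1 was far below the others. It was 15.3, 12.6 and 28.2 times in ORB2 IP, against 26.7, 22.7 and 45.1 times in control IP, so the IPs lay below every input and overlapped each other. For eIF4A over eIF4B the ratio was 11, 96.7 and 94.6 in input, 3.49, 3.48 and 5.21 in ORB2 IP, against 2.03, 2.05 and 3.41 in control IP. Among the eIF3 genes other than eIF3j, the highest was 4.57 to 5.70 times the lowest in input, 3.38 to 6.0 times in ORB2 IP and 5.81 to 8.96 times in control IP.

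**Figure D5:**
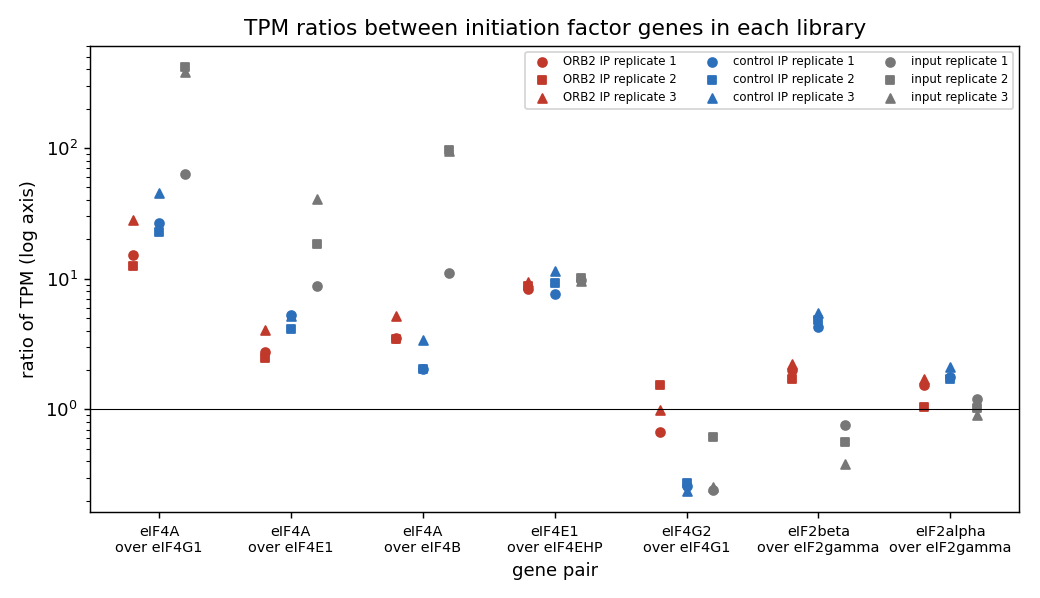
Ratio of TPM (log axis) between pairs of initiation factor genes in each of the 9 libraries. The ratio of eIF2beta to eIF2gamma separates all 3 groups, eIF4G2 to eIF4G1 is highest in ORB2 IP, and eIF4E1 to eIF4EHP lies between 7.66 and 11.4 in all libraries.

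Genes that act with the initiation factors were read beside them. Their lists were made with earlier results of these data known, so the shares below describe these lists only. Of 28 listed regulators and partners of initiation found in the tables, 12 rose in ORB2 IP over control IP, 4 were lower and 12 did not pass the test, with a median log2 fold change of 0.35, where 20.8% of all genes were higher and 21.6% lower. Of 11 elongation and termination factors, 2 were higher, 4 lower and 5 uncalled, with a median of -0.25, beside the same shares of all genes. The 3 largest increases were those of mxt, a scaffold that binds eIF4E in place of eIF4G (1.33, SE 0.31, limma adjusted p = 0.00645), bel, a DEAD-box RNA helicase (1.12, SE 0.28, limma adjusted p = 0.00879), and cup, a repressor that binds eIF4E (1.04, SE 0.20, limma adjusted p = 0.0031). For cup the normalized counts were 1393, 1770 and 1136 in ORB2 IP, 684, 784 and 604 in control IP, with 906, 1072 and 914 in input. Control IP thus lay below and ORB2 IP above every input. The log2 fold change of ORB2 IP over input, 0.55 (SE 0.23), missed the threshold (limma adjusted p = 0.0709). The counts of mxt were 176, 171 and 117 in ORB2 IP, 60.6, 91.3 and 38.6 in control IP, with 180, 302 and 302 in input. Those of bel were 870, 965 and 489, then 381, 437 and 237, and 548, 824 and 849 in input. For both genes the IPs did not overlap, and control IP lay below every input. ORB2 IP also lay below every input for mxt (log2 fold change -0.73, SE 0.29, limma adjusted p = 0.0553), and overlapped input for bel. The 3 largest decreases were those of DENR (-1.18, SE 0.17, limma adjusted p = 0.000954) and MCTS1 (-1.15, SE 0.20, limma adjusted p = 0.00243), partners in reinitiation, and of eEF1delta, a subunit of the elongation exchange factor (-1.15, SE 0.18, limma adjusted p = 0.00157). DENR had 483, 517 and 582 in ORB2 IP, 1378, 1136 and 1086 in control IP, with 562, 446 and 569 in input, and MCTS1 had 426, 391 and 610, then 1259, 936 and 946, and 477, 366 and 556. For both, ORB2 IP overlapped input and control IP lay above it.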

How the data were processed

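RNA was measured by immunoprecipitation and sequencing of embryo extract in 3 groups of 3 libraries, grouped as titled in the labels. Libraries were stranded, depleted of ribosomal RNA and read as pairs of 125 nt, per the labels' protocols. The authors deposited TPM per gene and library, scaled for transcript length and library total. The other deposited table gives normalized counts, a signal with a scaling that the labels leave undefined. The tools named, per the submitters' processing notes and without their roles, are DESeq2 1.42.1, Salmon 1.9.1 and Trim Galore 0.6.5. The sources used here do not give the genome build or the use of strand in counting. Exons of 5 eIF genes overlap another gene on the same strand and those of 13 on the opposite strand, and such reads may have been split or shared.

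Each comparison was fitted on its own 6 libraries with limma 3.58.1 (limma-trend) in R 4.3.3, on log2(normalized count + 1). Genes with a mean under 10 normalized counts were left out, a filter that all 34 eIF genes passed in each comparison. Tests were two-sided, with Benjamini-Hochberg adjustment over all genes and calls below 0.05. Fold changes are on the log2(value + 1) scale. Normalized values are not counts, so no count model was run. On simulated data the fit was tested with known changes in 200 genes a comparison. The labels do not say whether replicates came from separate embryo collections, so p-values measure the spread between these libraries, which may be technical. Intervals in reads cover counting error only.

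Same-numbered libraries deviated together between ORB2 IP and control IP (correlations of deviations 0.102, 0.230 and 0.276, against -0.339 to 0.079 for unlike numbers). The value of 0.102 lay little above that range, so a pairing by number is possible but uncertain. The main fits did not use it. Between control IP and input the same numbers gave 0.042 to 0.183 and unlike numbers -0.196 to -0.003. Between ORB2 IP and input these were -0.190 to 0.181 and -0.403 to 0.293.

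Values were given in all libraries for eIF genes called with at least a 2-fold change in any comparison, for the 3 largest changes in each direction and for genes with paralogs, and of the listed partner genes the 3 largest in each direction were named. The eIF genes, the lists of partners and the marker lists were chosen with earlier results of these data known. Alternatives were pseudocounts of 0.5 and 5, no filter and a filter of 50, other scalings, the TPM table, all 9 libraries in 1 fit, no mean-variance trend, the replicate block, removal of the length trend (lowess, span 0.3) and each replicate left out. Genes were matched to Ensembl's BDGP6.54 annotation for coordinates and lengths, which may not be the authors' build. Python 3.11.15 with pandas 2.3.3, numpy 2.4.6 and matplotlib 3.10.9 made the summaries and figures.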

Additional observations from a re-analysis of the deposited data

How the results depend on the processing

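Of 1938 single-gene results under the alternatives, 1611 kept their call or, if uncalled, stayed uncalled within 1 SE of the main value, whatever the sign. Another 133 stayed uncalled but moved further, 112 lost and 74 gained a call, and 8 reversed. Between the IPs, the 6 higher and 4 lower eIF genes became 1 and 8 with equal totals, 1 and 2 with all 9 libraries in the fit, and 2 and 4 with the length trend removed. Lower calls were 2 with quantile normalization and with either TPM pseudocount. The 13 genes of ORB2 IP below input became 20 with equal totals and 7 without the mean-variance trend, and the 12 of control IP became 19 with equal totals and 20 in TPM. Leaving out a replicate gave 4 to 7 higher and 3 to 4 lower between the IPs, 9 to 10 and 5 to 13 for ORB2 IP against input, and 10 to 11 and 10 to 16 for control IP against input. The lowest values of ORB2 IP against input were 6 without ORB2 IP replicate 2 and 5 without input replicate 2 or 3. Lower calls over all genes fell in these fits too, from 1593 to 1165, 1035 and 891, a smaller loss in proportion. Against input, ORB2 IP reversed for eIF2beta (-0.07), eIF3h (-0.78) and eIF3m (-0.77) with equal totals, a scaling that moved the median of all genes from -0.03 to -0.81, by as much as these genes. Control IP reversed for eIF3b (-0.17) and eIF3h (-0.53) in TPM at either pseudocount, where the median of all genes went from 0.01 to -0.60 with a pseudocount of 1, and for eIF3k (-0.55) with the length trend removed. For the other changes the cause was not tested. With the replicate block, 7 eIF genes were higher and 4 lower between the IPs. Against input the block gave 10 and 10 for ORB2 IP and 12 and 13 for control IP. A pairing by number is not established there (same-numbered correlations -0.190 to 0.181 and 0.042 to 0.183). It ended the calls of eIF2alpha, eIF3a and eIF3c in ORB2 IP and added eIF4A and eIF4H1 in control IP, and changed no other eIF call except that of eIF3l between the IPs. Depth may limit low genes such as those of eIF2B, at 51.2 to 220.2 normalized counts in the IPs, which was not tested.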

Other observations

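The overlapping neighbours of some eIF genes had values of their own. Su(var)3-9, which shares exon bases with eIF2gamma on the same strand, was at a log2 fold change of -0.47 in ORB2 IP over control IP (SE 0.19, limma adjusted p = 0.0702), where eIF2gamma was at 0.32. Against input it was lower in both IPs, at -1.21 (SE 0.23, limma adjusted p = 0.00344) and -0.74 (SE 0.22, limma adjusted p = 0.0142). CG33111, which overlaps eIF4G2, was above input in both, at 1.99 (SE 0.39, limma adjusted p = 0.00379) and 1.66 (SE 0.36, limma adjusted p = 0.00279).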
